A study of Mus musculus with 15 samples.

Results

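Genes of membrane trafficking were followed in mouse heart muscle cells: the 4 EHD proteins Ehd1, Ehd2, Ehd3 and Ehd4, and the 3 caveolins Cav1, Cav2 and Cav3. They are 7 of the 12102 genes kept after a filter on dim signals, and all 7 members passed it, each with 1 probe set. The members were named by symbol, and Ehd4 brought the group up because it had ranked high, without passing, in an earlier test of these same arrays for any difference from sham. For Ehd4 the values are therefore given as a description with no test, and the tests below cover the other 6 members.

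Left-ventricular cardiomyocytes came from male C57Bl/6NT mice aged 8 to 9 months, an inbred laboratory strain. The mice had whole-body exposure to 90 cGy of 1 GeV protons or a sham exposure, and the hearts were digested with collagenase. The groups were proton day 1 (2 arrays), day 3 (3 arrays), day 5 (3 arrays), day 12 (2 arrays) and day 26 (2 arrays), with 3 sham arrays, of which 2 were of day 1 and 1 of day 3. A sham group made of these 3 arrays served for all days, so the comparisons share their controls. Days 5, 12 and 26 had no sham of their own, and time since exposure and proton treatment cannot be told apart there. The series' design text gives the days as 1, 3, 7, 14 and 28, and the days of the sample titles are used here. Separate animals per array are not stated in the labels, and the p-values measure only the spread between these samples.

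EHD proteins are ATPases related to dynamin that bind and shape membranes. Ehd1 and Ehd3 return cargo from recycling endosomes to the cell surface, Ehd4 acts on early endosomes, and Ehd2 sits at the neck of caveolae and holds them at the membrane. Caveolae are flask-shaped pits of the plasma membrane that buffer stretch and gather signalling proteins, and caveolins are their membrane-embedded building blocks. Cav3 is the caveolin of muscle cells, whereas Cav1 and Cav2 are abundant in endothelial cells, fibroblasts and fat cells. In heart muscle, Ehd3 is known as a partner of ankyrin-B in placing the sodium-calcium exchanger.

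The promoters of 5 members are shown as a description: Ehd4, the caveola genes Cav1, Cav2 and Ehd2, and the muscle caveolin Cav3. Each line holds the 250 bases before the gene start, from RefSeq on GRCm38.p6, 5′ to 3′ on the gene's strand. Capitals mark matches, searched on both strands and allowed to overlap. The motifs searched were the CCAAT box, the Sp1-type GC box with the letters GGGCGG, the TATA box written as TATAAA, and the E-box, for which the pattern was CANNTG.
Ehd4, chr2:120154576-120154825, minus strand: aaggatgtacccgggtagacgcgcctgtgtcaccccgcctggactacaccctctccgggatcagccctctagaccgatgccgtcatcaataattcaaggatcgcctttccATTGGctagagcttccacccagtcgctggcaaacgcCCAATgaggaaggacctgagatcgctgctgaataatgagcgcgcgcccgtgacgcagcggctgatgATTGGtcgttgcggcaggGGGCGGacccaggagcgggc
Cav1, chr6:17306085-17306334, plus strand: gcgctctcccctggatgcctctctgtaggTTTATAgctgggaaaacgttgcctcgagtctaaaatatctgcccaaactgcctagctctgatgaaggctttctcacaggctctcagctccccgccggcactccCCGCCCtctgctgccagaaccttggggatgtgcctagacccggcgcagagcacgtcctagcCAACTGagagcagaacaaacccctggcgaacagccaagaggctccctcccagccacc
Cav2, chr6:17280935-17281184, plus strand: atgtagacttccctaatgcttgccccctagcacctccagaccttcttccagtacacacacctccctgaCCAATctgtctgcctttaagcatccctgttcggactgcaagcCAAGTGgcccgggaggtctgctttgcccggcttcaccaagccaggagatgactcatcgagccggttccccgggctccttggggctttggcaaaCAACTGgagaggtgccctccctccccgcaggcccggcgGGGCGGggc
Ehd2, chr7:15967536-15967785, minus strand: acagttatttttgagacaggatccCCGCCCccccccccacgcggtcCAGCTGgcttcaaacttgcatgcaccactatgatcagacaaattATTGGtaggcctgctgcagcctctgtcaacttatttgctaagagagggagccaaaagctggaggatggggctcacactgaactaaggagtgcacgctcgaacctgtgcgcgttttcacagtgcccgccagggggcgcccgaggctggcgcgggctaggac
Cav3, chr6:112459255-112459504, plus strand: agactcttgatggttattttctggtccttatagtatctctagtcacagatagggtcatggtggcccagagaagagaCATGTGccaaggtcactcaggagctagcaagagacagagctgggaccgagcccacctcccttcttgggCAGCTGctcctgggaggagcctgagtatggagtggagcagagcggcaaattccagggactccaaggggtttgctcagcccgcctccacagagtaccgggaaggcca
The Ehd4 window held 3 CCAAT matches, at 140, 104 and 38 bases before the start, and 1 GGGCGG match. At least 3 CCAAT matches were present in 2.79% of the 32851 promoter windows of the same length, and at least 1 in 33.8%. Cav1, Cav2 and Ehd2 shared a GGGCGG match (32.7% of all windows) and a CANNTG match (66.2% of all windows), while Cav3 held CANNTG matches only, 2 of them. TATAAA, present in 12.4% of all windows, occurred only in Cav1 among these 5. These are matches of letters, no binding was measured, and no motif was related to the signals. The windows of Cav1, Cav2 and Ehd2 were 59.6%, 62.0% and 58.0% G or C, against a median of 52.4% over all windows. Those of Ehd4 (61.2%), Ehd3 (60.0%) and Cav3 (56.0%) were above that median too. A second Cav1 window, away from the gene start, held 1 CANNTG match and no GGGCGG match. The Ehd3 window held no match to any of these motifs. The promoter table held entries for 6 of the 7 members.

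Signals are log2 values of Affymetrix arrays, as deposited. A probe set's level depends on its own probes, so levels are compared between samples for 1 gene and never between genes. Replicates 1 and 2 of proton day 5 were more alike (Spearman 0.989) than any other 2 arrays (0.978 or less). They were counted as 1 averaged sample, which left 14. The 10 cardiomyocyte markers (such as Myh6, Tnnt2 and Ryr2) were all measured, with a mean log2 signal of 11.95 to 12.04 over the samples. The suspension also carried RNA of other cells: all 16 endothelial markers, 11 of 12 fibroblast markers and all 13 macrophage markers passed the filter. Their scores, the mean deviation of the markers from their own means in log2 units, ran from -0.67 to 0.55 for endothelial, -0.68 to 0.74 for fibroblast and -0.92 to 0.81 for macrophage markers. In such bulk RNA, fewer cells of a type and less RNA per cell cannot be told apart.

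Ehd4 was lower in the later proton samples. Its gene spans bases 120089487 to 120154575 of chromosome 2 in GRCm38.p6. The sham arrays read 10.23 and 10.14 at day 1 and 10.27 at day 3 (log2 signal). Proton day 1 read 10.03 and 10.13, and day 3 read 10.11, 10.13 and 10.14, and all 5 early samples lay below the sham samples, the nearest of them by less than 0.01.

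From day 5 the signal stood apart. Day 5 read 9.76, 9.76 and 9.82, day 12 read 9.93 and 9.85, and day 26 read 9.88 and 9.73. Every sample of days 5, 12 and 26 lay below every sample of days 1 and 3 and every sham sample. Among all genes tested, 1.44% had days 5, 12 and 26 wholly below days 1 and 3 and 0.43% wholly above, and 0.909% had all proton samples below all sham samples. Nothing is read from these shares, since Ehd4 was chosen on its difference from sham. Day 3 alone lay wholly below sham in 4.39% of genes.

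The group means of Ehd4, in order, were 10.22 ± 0.07 in sham (SD, n = 3), 10.13 ± 0.02 at day 3 (n = 3), 10.08 ± 0.07 at day 1 (n = 2), 9.89 ± 0.06 at day 12 (n = 2), 9.80 ± 0.10 at day 26 (n = 2) and 9.79 ± 0.04 at day 5 (n = 2). Days 1 and 3 overlapped each other, and day 26 overlapped both day 5 and day 12. Against sham the log2 difference was -0.14 ± 0.07 (SE of the limma fit) for day 1 and -0.09 ± 0.06 for day 3. It was -0.43 ± 0.07 for day 5, -0.33 ± 0.07 for day 12 and -0.41 ± 0.07 for day 26. On the linear scale these last 3 are 1.34-fold, 1.26-fold and 1.33-fold lower.

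The SD of Ehd4 within groups was 0.0617, and 2.19% of all genes tested had a smaller one. The test that brought Ehd4 up favours genes of small SD, so nothing is read from this share. Its whole range over the samples, 0.54, was below the median range of 0.62 for all genes.

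The Ehd4 difference was also taken with 1 averaged score of endothelial, fibroblast and macrophage markers in the model. The r of Ehd4 with the endothelial score was -0.35 over 14 samples (Spearman -0.32) and 0.08 after group means were removed. With the fibroblast score r was -0.46 and -0.0061 in that order, and with the macrophage score -0.31 and -0.02. With the averaged score in the fit as a covariate, the Ehd4 difference was -0.43 ± 0.07 at day 5 and -0.41 ± 0.08 at day 26. These differences are the same as without the covariate to 2 decimals. Such a covariate moves a gene little where its r within groups is small, so nothing is read from this. The cardiomyocyte score was 0.01 to 0.05 in sham, -0.04 to -0.01 at day 5 and -0.03 to -0.01 at day 26, and its part in the Ehd4 difference was not tested. Adipocyte, mesothelial, and smooth muscle and pericyte markers were not in the model either. The adipocyte score was -0.48 to -0.19 in sham, -0.01 to 0.38 at day 5 and 0.27 to 1.00 at day 26. It overlapped sham at day 1 (-0.42 to -0.19), day 3 (-0.83 to 0.50) and day 12 (-0.26 to 0.83). The mesothelial score was -1.11 to 0.10 in sham, 0.20 to 0.38 at day 5 and -0.14 to 0.03 at day 26. The part of these markers in the Ehd4 difference was not tested.

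**Figure D1:**
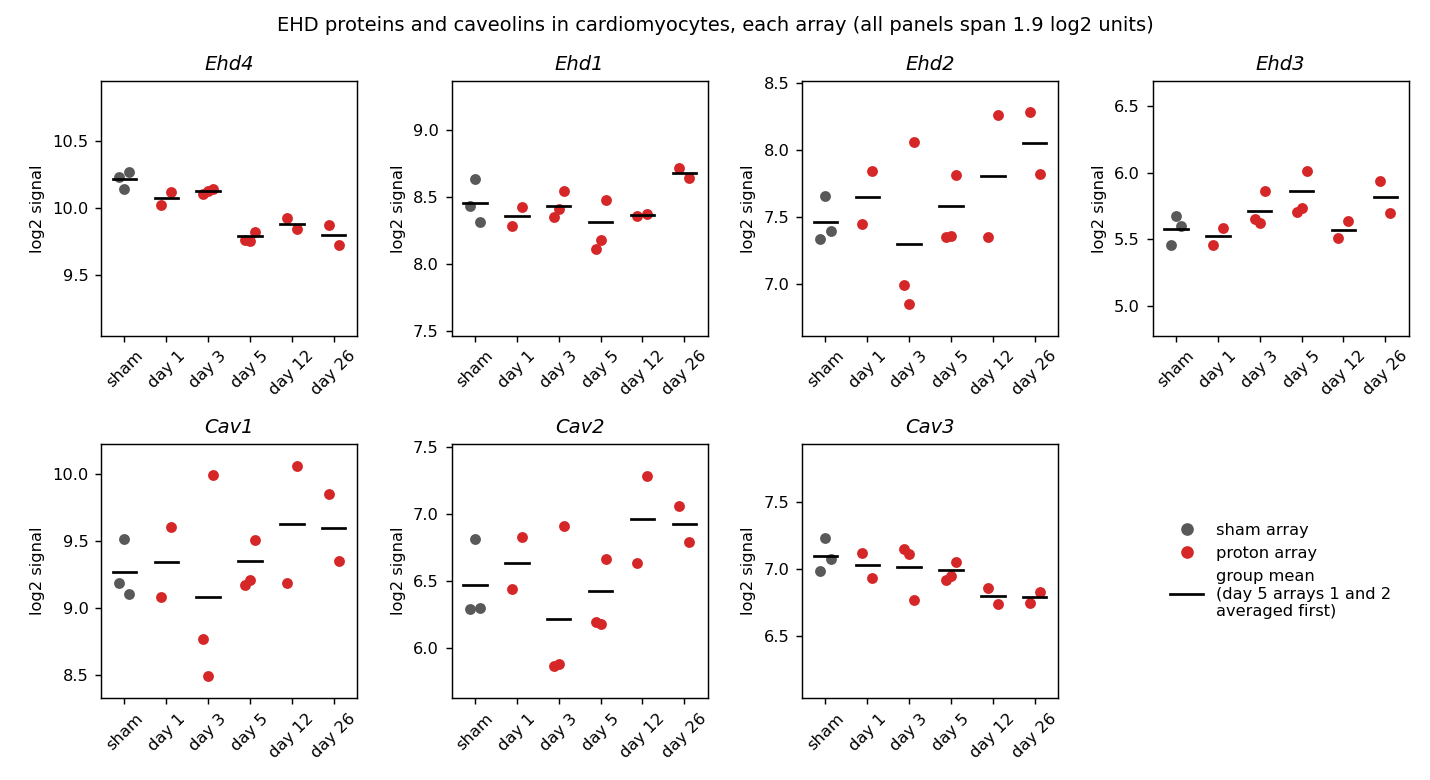
Log2 signal of each member on every array, by group, with sham arrays in grey, proton arrays in red and group means as black bars; every panel spans the same range. Ehd4 sits at 9.73 to 9.93 on the arrays of days 5, 12 and 26 against 10.03 to 10.27 on all others, while Ehd2, Cav1 and Cav2 scatter by more than 1 log2 unit within proton day 3.

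The other 3 EHD genes did not pass the test on any day. Of all genes tested with limma, the share past an adjusted p of 0.05 was 0.0% for day 1 and for day 12, 0.00826% for day 3, 0.0496% for day 5, 0.0413% for day 26 and 0.0248% for all proton samples together. None of the 6 members other than Ehd4 was among them. At an unadjusted limma p under 0.05, 1 of the 6 was counted at day 12 and 1 at day 26, in each case Cav3, against 8.01% and 14.3% of all genes.

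Ehd1, the recycling endosome ATPase on chromosome 19 (6276896 to 6300096), read 8.43, 8.63 and 8.31 in sham and 8.72 and 8.64 at day 26. The day 26 arrays lay just above the sham arrays, whereas those of days 1, 3, 5 and 12 were within or below the sham range. The day 26 difference was 0.22 ± 0.12 (limma adjusted p = 0.41). At day 5 the arrays read 8.11, 8.18 and 8.48, and the difference was -0.15 ± 0.12 (limma adjusted p = 0.761), which ran from -0.31 to -0.06 when 1 array was left out.

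Ehd3, the ankyrin-B partner on chromosome 17 (73804841 to 73832093), read 5.46, 5.68 and 5.60 in sham, not far above the filter of 5.00. Day 5 read 5.71, 5.74 and 6.01 and day 26 read 5.94 and 5.70, in both cases above all sham arrays (16.8% and 24.7% of all genes were wholly above sham on these days). Their differences were 0.29 ± 0.14 (limma adjusted p = 0.606) and 0.24 ± 0.14 (limma adjusted p = 0.449). Without proton day 5 replicate 3 the former was 0.14. Day 12 read 5.51 and 5.63, inside the sham range.

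Ehd2, the caveola neck protein on chromosome 7 (15946963 to 15967535), spread widely between replicates, with an SD within groups of 0.453 that exceeded 95.5% of genes. Sham read 7.33, 7.65 and 7.40, day 1 read 7.44 and 7.84, and day 3 read 6.99, 6.84 and 8.06. Day 5 read 7.35, 7.35 and 7.81, day 12 read 7.34 and 8.26, and day 26 read 8.28 and 7.82. Single arrays of days 3 and 12 were thus more than 0.5 above others of their own group, and day 26 alone lay wholly above sham. The day 26 difference was 0.59 ± 0.35 (limma adjusted p = 0.441), and 0.36 without proton day 26 replicate 1.

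Across the 6 members other than Ehd4, 3 had day 26 samples wholly above sham (Ehd1, Ehd2 and Ehd3) and 1 wholly below (Cav3). The shares over all genes were 24.7% and 14.1%. Scores of other cells were also wholly above sham at day 26: the fibroblast score was 0.0068 to 0.53 (sham -0.51 to -0.13), the macrophage score 0.17 to 0.37 (sham -0.59 to -0.08), and the smooth muscle and pericyte score, from 9 of 10 markers without Cnn1, 0.07 to 0.52 (sham -0.23 to 0.07). The adipocyte score was so too, at 0.27 to 1.00 (sham -0.48 to -0.19). The endothelial score overlapped sham, at 0.03 to 0.50 against -0.29 to 0.05, and so did the mesothelial score, at -0.14 to 0.03 against -1.11 to 0.10. Day 26 was not alone in this. At day 1 the endothelial (0.09 to 0.28), fibroblast (0.07 to 0.34) and macrophage (0.15 to 0.81) scores were wholly above sham. Of the 6 members 0 were, against 14.2% of all genes. At day 5 the fibroblast (0.09 to 0.22), macrophage (-0.05 to -0.03), adipocyte (-0.01 to 0.38) and mesothelial (0.20 to 0.38) scores were. Of the 6 members 1 was, against 16.8% of all genes. Nothing is read from these counts of members. The part of the smooth muscle and pericyte, adipocyte and mesothelial markers in the differences of the members was not tested.

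**Figure D2:**
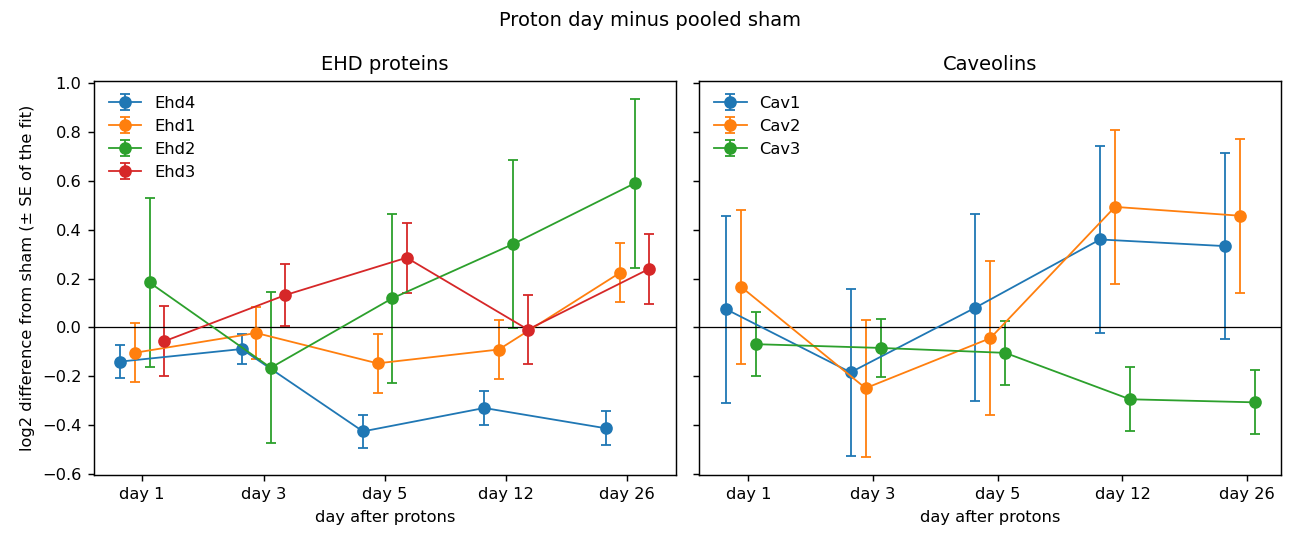
Log2 difference of each proton day from pooled sham with the SE of the limma fit, EHD proteins on the left and caveolins on the right. Ehd4 sits between -0.33 and -0.43 from day 5 on with an SE of 0.07, whereas the SE of Ehd2, Cav1 and Cav2 reaches 0.31 to 0.38.

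The caveolins of non-muscle cells, Cav1 and Cav2, are neighbours on chromosome 6, Cav2 from 17281185 to 17289130 and Cav1 from 17306335 to 17341328. Cav1 read 9.19, 9.51 and 9.10 in sham, 9.08 and 9.61 at day 1, and 8.77, 8.49 and 9.99 at day 3. It read 9.17, 9.21 and 9.51 at day 5, 9.19 and 10.07 at day 12, and 9.85 and 9.35 at day 26. Day 3 alone ran from the lowest Cav1 sample to nearly the highest, and every group overlapped sham.

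Cav2, which needs Cav1 to reach the plasma membrane, read 6.29, 6.81 and 6.30 in sham, 6.44 and 6.83 at day 1, and 5.86, 5.88 and 6.91 at day 3. It read 6.19, 6.18 and 6.66 at day 5, 6.64 and 7.28 at day 12, and 7.06 and 6.79 at day 26. The arrays high or low in Cav1 were high or low in Cav2 as well, with day 3 replicate 3 and day 12 replicate 2 high and day 3 replicates 1 and 2 low. The largest differences from sham were 0.49 ± 0.31 for Cav2 at day 12 (limma adjusted p = 0.644) and 0.36 ± 0.38 for Cav1 at day 12 (limma adjusted p = 0.765). Without proton day 12 replicate 2 they were 0.17 and -0.08. The 95% interval of the Cav1 difference at day 26 ran from -0.50 to 1.16, which leaves room for a difference of 1 log2 unit.

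Cav3, the muscle caveolin on chromosome 6 (112459505 to 112472872), had lower values at the late days. Sham read 6.98, 7.23 and 7.08, day 1 read 7.12 and 6.93, day 3 read 7.15, 7.11 and 6.77, and day 5 read 6.92, 6.95 and 7.05. Day 12 read 6.86 and 6.74 and day 26 read 6.75 and 6.83, all 4 below the lowest sham array, while days 1, 3 and 5 overlapped sham. At day 12 it was the 1 member of 6 wholly below sham (11.2% of genes), and none was wholly above (9.92%).

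The Cav3 difference was -0.29 ± 0.13 at day 12 (limma adjusted p = 0.616) and -0.31 ± 0.13 at day 26 (limma adjusted p = 0.315), and neither passed. Over all genes tested, 5.42% had days 12 and 26 wholly below sham. With the averaged marker score in the fit, the Cav3 difference was -0.19 ± 0.12 at both days.

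Days 12 and 26 were also set against days 1 and 3, the late against the early samples. Of all genes, 0.00826% passed in that contrast, and none of the 6 members did. None was wholly above (1.48% of genes) or wholly below (2.59%) the early samples. At an unadjusted limma p under 0.05, 2 of the 6 were counted, Cav2 and Cav3, against 13.2% of genes. Cav2 was 0.52 ± 0.23 higher (limma adjusted p = 0.373), Ehd2 0.46 ± 0.26 higher (adjusted p = 0.467) and Cav1 0.40 ± 0.28 higher (adjusted p = 0.562), whereas Cav3 was -0.22 ± 0.10 (adjusted p = 0.361). Without proton day 12 replicate 2, Ehd2 was at 0.23, Cav1 at 0.18 and Cav2 at 0.35. Ehd4, again with no test, was at -0.26 ± 0.05. Neither F-test passed a member: the lowest adjusted p among the 6 was 0.617 for any day against sham (0.0248% of all genes passed, and 9.54% had an unadjusted p under 0.05, none of the 6 among them) and 0.659 for differences among the proton days (0.0% of all genes passed).

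Cav1, Cav2 and Ehd2 followed each other closely over the samples. Over 14 samples, Cav1 and Ehd2 correlated at r = 0.96 (Spearman 0.90), Ehd2 and Cav2 at 0.95 (Spearman 0.94), and Cav1 and Cav2 at 0.93 (Spearman 0.93). Each had an adjusted permutation p of 7e-05 over the 21 pairs of members, from a raw p of 1e-05, the smallest that 100000 permutations can give. The Spearman adjusted p was at most 0.00035. Without the 2 samples farthest from the median of the first-named gene, r was 0.95, 0.93 and 0.89. With group means removed, r was 0.99, 0.97 and 0.96, so the 3 genes also followed each other among replicates of the same day. The points share array and scaling.

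Cav3 ran the opposite way. Its r was -0.70 with Ehd2, -0.68 with Cav1 and -0.66 with Cav2 (permutation test, adjusted p = 0.0331, 0.0331 and 0.0395; Spearman -0.67, -0.70 and -0.67, adjusted p = 0.0396, 0.0351 and 0.0396). Within groups it was -0.63, -0.68 and -0.53, and without the 2 farthest samples -0.51, -0.58 and -0.55. For Ehd4, r ran from -0.41 with Ehd3 to 0.48 with Cav3, and the latter was -0.37 within groups. No pair with Ehd1 or Ehd3 passed, although Ehd3 had an r of 0.84 with Ehd2, 0.79 with Cav1 and 0.85 with Cav2 once group means were removed.

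**Figure D3:**
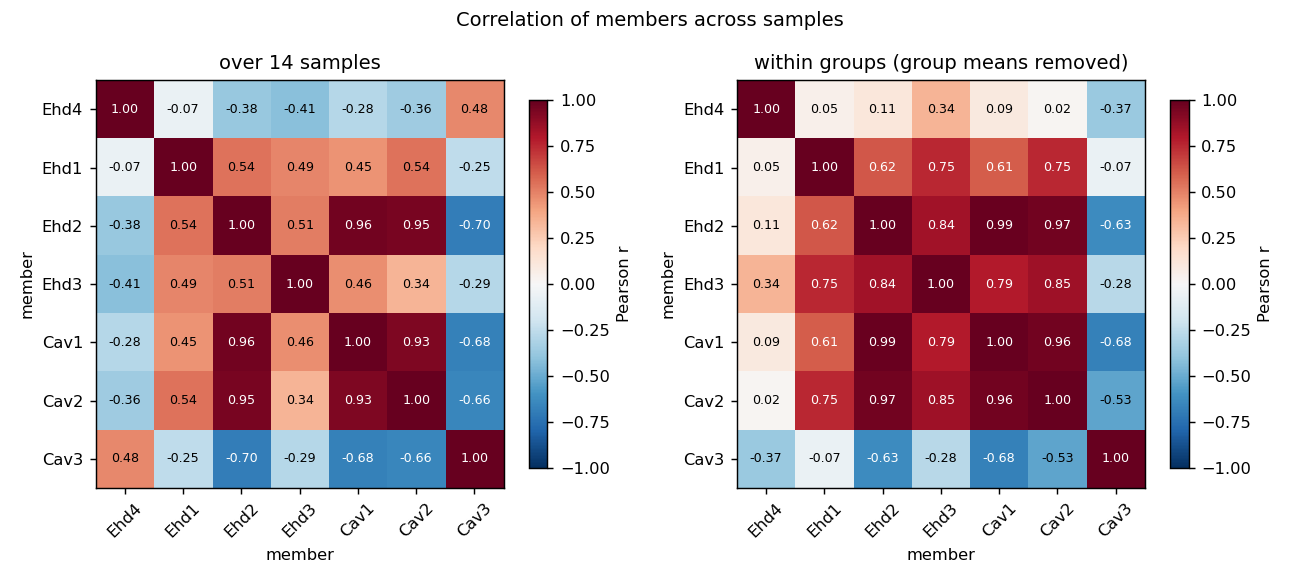
Pearson correlation between members over 14 samples (left) and after each group's mean was removed (right), with r written in each cell. Ehd2, Cav1 and Cav2 form a block at 0.93 to 0.96 on the left and 0.96 to 0.99 on the right, Cav3 is negative with them in both, and Ehd4 is between -0.37 and 0.34 on the right.

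The same 3 genes followed the markers of other cells. With the score of 16 endothelial markers, which holds none of the members, r was 0.97 for Ehd2, 0.95 for Cav1 and 0.94 for Cav2 (permutation test, adjusted p = 5.25e-05 for each over 21 relations; Spearman 0.95, 0.89 and 0.93, adjusted p at most 0.00049). Within groups these were 0.99, 0.98 and 0.96, and without the 2 samples of farthest score 0.95, 0.90 and 0.90. With the fibroblast score r was 0.91, 0.91 and 0.83, and with the macrophage score 0.86, 0.85 and 0.84, all past an adjusted permutation p of 0.05. Day 12 replicate 2 was high and day 3 replicates 1 and 2 were low in all 3 scores, and the shares of the cell types in these relations cannot be told apart.

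Cav3 was at r = -0.63 with the endothelial score (permutation test, adjusted p = 0.0293), -0.67 with the fibroblast score (adjusted p = 0.0212) and -0.66 with the macrophage score (adjusted p = 0.0216). In all, 12 of the 21 relations passed, these 3 among them. How many of all genes would pass with these scores was not counted, so nothing is read from this number. The 3 relations of Cav3 were lost with equal array medians and without proton day 12 replicate 2, each leaving 9, and 1 or 2 of them were lost without proton day 3 replicate 1, 2 or 3 or proton day 26 replicate 1. Ehd1 and Ehd3 passed with none of the scores, although Ehd3 stood at 0.86 with the endothelial score within groups.

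With the average of those scores in the fit, the SE of the Cav1 difference at day 26 went from 0.38 to 0.10 and the difference from 0.33 to -0.25. For Ehd2 at day 26 it went from 0.59 ± 0.35 to 0.07 ± 0.12, and for Cav2 from 0.46 ± 0.31 to 0.01 ± 0.14. None of these passed. At day 3 the endothelial score was -0.67 to 0.36, the fibroblast score -0.68 to 0.54 and the macrophage score -0.92 to 0.51. At day 12 they were -0.13 to 0.55, -0.38 to 0.74 and -0.33 to 0.80. The score of the adipocyte markers, of which 4 of 7 were measured and Adipoq was not, was -0.48 to -0.19 in sham and 0.27 to 1.00 at day 26, and its part in these differences was not tested.

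**Figure D4:**
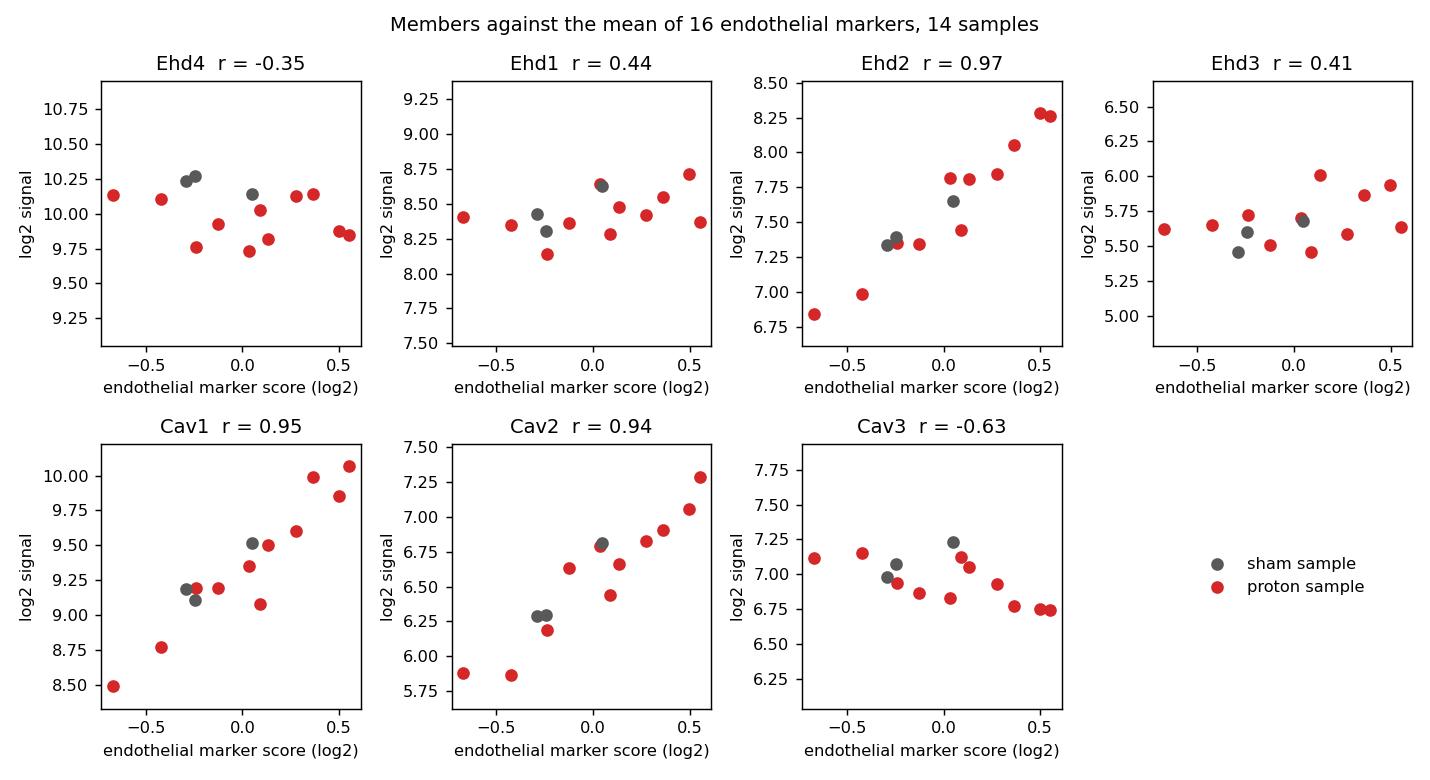
Log2 signal of each member against the endothelial marker score of the same sample, the mean deviation of 16 markers in log2 units, with sham in grey and protons in red. Ehd2, Cav1 and Cav2 rise along a line (r = 0.97, 0.95 and 0.94), Cav3 declines (r = -0.63), and Ehd4 shows no such line (r = -0.35).

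The genes most like each member, by Pearson correlation over 14 samples among all genes tested, are given as a description. Ehd4 was most like Metap1 (r = 0.93), Suclg1 (0.92), Ptcd2 (0.92), Uqcrc2 (0.92) and Fh1 (0.91). Suclg1 and Fh1 encode enzymes of the citric acid cycle and Uqcrc2 a core subunit of respiratory complex III. Within groups the correlations of these 5 with Ehd4 were 0.46 to 0.71.

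Ehd2 was most like Esam, an adhesion molecule of endothelial cells (0.98), Pcsk6 (0.98) and Igfbp7 (0.97). For Cav1 the nearest were Ly6e (0.97), Cald1 (0.97) and Igfbp7 (0.97), and for Cav2 Adgrl4 (0.99), Flt1, the VEGF receptor 1 (0.96), and Triobp (0.96). Esam and Flt1 are also in the endothelial score. Cav3 was most like Smco1 (0.94), Myocd, a cofactor of muscle gene transcription (0.87), and Cideb (0.85). Ehd1 was nearest to Mcf2l (0.90), Tinagl1 (0.87) and Lims2 (0.83), and Ehd3 to Kdm4b (0.85), Spen (0.83) and Foxo3 (0.81). Among all other genes, Ehd2 stood at rank 5 for Cav1 and at rank 9 for Cav2.

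The proteins that work with the members were taken as 7 lists of 116 genes in all, of which 103 were tested. None of the 103 passed in any of the 7 directed contrasts or both F-tests with limma. With an unadjusted p under 0.05 there were 2 for day 1, 8 for day 3, 12 for day 5, 11 for day 12 and 9 for day 26. Taken in that order these are 1.94%, 7.77%, 11.7%, 10.7% and 8.74% of the list genes, against 5.5%, 8.86%, 8.99%, 8.01% and 14.3% of all genes.

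Of the caveola coat and neck proteins, 9 of 10 were tested, and 7 were below sham at day 5 and 6 at day 12, with medians of -0.11 at both days against 0.01 over all genes. Cavin4, the muscle-specific cavin, was at 8.46 ± 0.17 in sham (SD, n = 3), 8.19 ± 0.01 at day 5 (n = 2), 8.12 ± 0.20 at day 12 (n = 2) and 8.16 ± 0.09 at day 26 (n = 2). All samples of these 3 days lay below the lowest sham value of 8.29. Of all genes tested, 15.8%, 11.2% and 14.1% lay wholly below sham at days 5, 12 and 26. The Cavin4 differences were -0.27 ± 0.12 (limma adjusted p = 0.531), -0.34 ± 0.12 (adjusted p = 0.609) and -0.30 ± 0.12 (adjusted p = 0.285). Pacsin2, which bends membranes at caveolae, was at -0.24 ± 0.07 at day 5 (limma adjusted p = 0.403).

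The other cavins are outside the rule for named genes and are shown as the rest of the coat. Cavin1, the cavin without which caveolae do not form, ran from 8.00 to 8.94 over the samples, Cavin2 from 7.12 to 8.15 and Cavin3 from 7.77 to 8.61. At day 3 their differences from sham were -0.17 ± 0.18, -0.16 ± 0.24 and 0.0037 ± 0.20, beside -0.04 ± 0.10 for Cavin4. At day 12 they were 0.20 ± 0.20, -0.0082 ± 0.27 and 0.19 ± 0.23, and at day 26 they were 0.18 ± 0.20, -0.04 ± 0.27 and 0.06 ± 0.23. In late against early samples Cavin1 was at 0.28 ± 0.15 and Cavin4 at -0.23 ± 0.09 (limma adjusted p = 0.447 and 0.304). None of the cavins passed, and differences between them were not tested.

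Of the EHD partners and recycling endosome genes, all 20 were tested, with medians from -0.06 at day 5 to 0.04 at day 3. Rab35, a GTPase of fast recycling, was at 8.19 ± 0.13 in sham (SD, n = 3), 7.81 ± 0.13 at day 3 (n = 3), 7.71 ± 0.06 at day 5 (n = 2) and 8.17 ± 0.04 at day 26 (n = 2). All samples of days 1, 3, 5 and 12 lay below all sham samples, and those of day 26 lay within the sham range. Of all genes tested, 14.9%, 4.39%, 15.8% and 11.2% lay wholly below sham at days 1, 3, 5 and 12, in that order. Rab35 was named for its small p in the any-day F-test, so nothing is read from this separation. The difference was -0.38 ± 0.09 at day 3 (limma adjusted p = 0.266) and -0.48 ± 0.10 at day 5 (limma adjusted p = 0.277). Rab35 passed at day 5 with array weights and with the 15 arrays as separate samples, and under no other alternative. The fit of 15 arrays counts the nearly alike replicates 1 and 2 of day 5 as separate samples, so nothing is read from that pass. Rab11fip2, a Rab11 effector that binds EHD proteins, was at 0.34 ± 0.13 at day 3 (limma adjusted p = 0.458). It was at 0.34 ± 0.14 at day 12 (limma adjusted p = 0.614) and -0.23 ± 0.14 at day 26 (limma adjusted p = 0.464).

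In the early endosome list, 14 of 15 genes were tested and 11 were below sham at day 5, with a median of -0.06. The tether Eea1 was at -0.30 ± 0.14 at day 26 (limma adjusted p = 0.377), and Rabgef1, which activates Rab5, was at -0.20 ± 0.07 in late against early samples (limma adjusted p = 0.299). Of the 12 retromer and sorting nexin genes, 11 were below sham at day 5, with a median of -0.10 against 0.01 over all genes. Vps29, a core subunit of retromer, was at 8.72 ± 0.10 in sham (SD, n = 3) and 8.43 ± 0.15 at day 12 (n = 2), a difference of -0.29 ± 0.09 (limma adjusted p = 0.572). The sorting nexin Snx5 was at 0.10 ± 0.08 at day 12 (limma adjusted p = 0.689).

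Of the clathrin endocytosis genes, 21 of 24 were tested and 18 were above sham at day 1, with a median of 0.09 against -0.01 over all genes. Synj1, a lipid phosphatase of coat removal, was at 6.23 ± 0.16 in sham (SD, n = 3) and 6.57 ± 0.13 at day 3 (n = 3), a difference of 0.34 ± 0.12 (limma adjusted p = 0.429). Eps15l1, a coat adaptor, was at 0.18 ± 0.10 at day 3 (limma adjusted p = 0.633) and -0.20 ± 0.09 in late against early samples (limma adjusted p = 0.363).

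The list of T-tubule and membrane repair genes had 13 of 14 tested, with medians of 0.01 to 0.08 over the 5 days. Trim72, a membrane repair protein that binds Cav3, was at -0.30 ± 0.10 at day 12 (limma adjusted p = 0.609). Dmd, which encodes dystrophin, was at -0.46 ± 0.17 at day 26 (limma adjusted p = 0.257).

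Of the cargo genes linked to EHD proteins or caveolins in heart, 14 of 21 were tested, and 12 were above sham at day 1 and 12 at day 3, with medians of 0.15 and 0.16 against -0.01 and 0.00 over all genes. Adcy6, a cyclase found in caveolae, was at 0.38 ± 0.09 at day 3 (limma adjusted p = 0.266). Kcna5, a potassium channel carried by recycling endosomes, was at -0.57 ± 0.19 at day 5 (limma adjusted p = 0.452). Its signal was near the filter of 5.00, at 4.66 to 5.04 at day 5 (n = 2). Sham was at 5.42 ± 0.34 (SD, n = 3), from 5.19 to 5.81. These lists are described by counts and medians alone, and nothing is called particular to them.

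**Figure D5:**
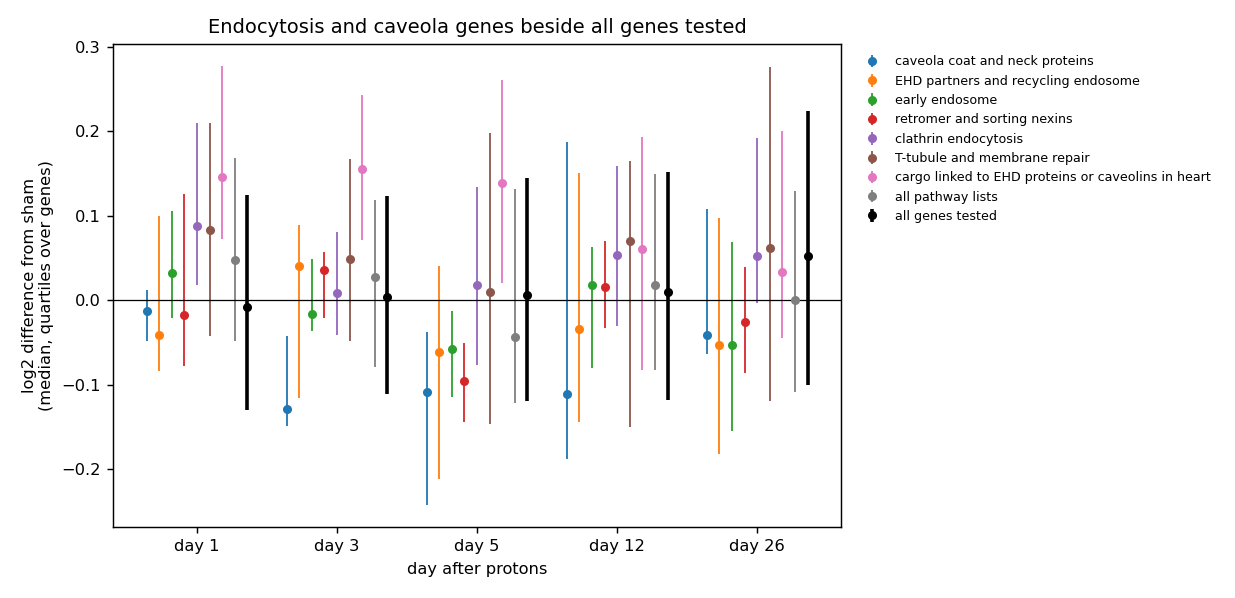
Median log2 difference from sham at each day after protons for the 7 lists, for their union and for all 12102 genes tested (black), with bars from the lower to the upper quartile over genes. The list medians lie between -0.13 and 0.16.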

How the data were processed

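The study ran 15 Affymetrix arrays on cardiomyocyte RNA, and the values deposited by the authors are log2 signals of 34760 probe sets. Per the submitters' processing notes the authors used MAS5, with no version; background correction and normalization are not given in the sources used here. The array medians lay between 4.90 and 5.16 and the 95th percentiles between 9.11 and 9.16. Arrays give no depth, and their number limits the precision.

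Probe sets with 1 symbol (21640; 1321 carried several and 11799 had no entry in the array annotation) were used, of which 21553 matched RefSeq (GRCm38.p6) by gene ID. The probe set with the highest mean stood for a gene, and genes with a mean above the median of all probe sets, 5.00, were tested (12102). Limma 3.58.1 in R 4.3.3 (lmFit, eBayes with a variance trend) was fitted over 14 samples and 6 groups, leaving 8 residual degrees of freedom. Benjamini-Hochberg adjustment covered all genes, at a threshold of 0.05. Correlations used 100000 permutations, 2-sided, in Python 3.11.15 with numpy 2.4.6; those between members were added after the values were seen. Genes named are all members, the 2 genes of each list with the smallest p in the any-day F-test (up to 4 that passed, had any), and the 5 genes most like Ehd4 and 3 most like each other member. List genes are shown at days or contrasts chosen for large differences, and their other days are not all given. The members and lists were chosen with earlier results of these data known. Shared replicate numbers were not taken as pairs: of 26 residual correlations between samples of the same number the median was -0.083, and 9 were above 0.1. The fit was tested on simulated data. Alternatives are scaling, filter, probe sets, variance model, weights, samples, covariate, a replicate block and leaving out each array. The 13 listed genes not tested were under the filter or had no single-symbol probe set.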

Additional observations from a re-analysis of the deposited data

Results flagged for a closer look

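Ehd1 stood on opposite sides of the sham mean at day 26 and at 2 earlier days in every sample. A side of the mean is no separation from sham. The sham arrays ran from 8.31 to 8.63, and day 1 (8.28 to 8.42) and day 12 (8.36 to 8.37) overlapped them. No share of all genes is given for such a pattern. The Ehd1 values are as follows. It was -0.10 from sham at day 1 and 0.22 at day 26, a gap of 0.328 on the log2 scale, and -0.09 at day 12, a gap of 0.314 to day 26. The gaps between these days were not tested singly; the limma F-test over differences among the 5 proton days gave an adjusted p of 0.659 for Ehd1.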

How the results depend on the processing

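No member other than Ehd4 passed limma's threshold in any of the 9 contrasts under any of the 27 alternatives; the lowest adjusted p was 0.0987, for Cav2 in late against early samples. The counts of members and of list genes passed were 0 in every fit that left out 1 array. List genes passed only in these: 1 at day 5 with array weights and 1 with 15 separate arrays (Rab35), 1 at day 26 with array weights (Ehbp1), 1 at day 3 with the marker score as covariate (Adcy6), and 3 in late against early with that covariate (Cltc, Dmd and Ehbp1l1). Ehd4 stayed below sham throughout, at -0.48 to -0.40 at day 5, -0.37 to -0.29 at day 12 and -0.52 to -0.34 at day 26. Equal array medians shifted the median of all genes by -0.105 at day 26, and Ehd4 then stood at -0.52 there and at -0.35 in late against early. Of the relations with marker scores, 9 to 12 passed when 1 array was left out.

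Differences that had not passed changed sign as follows; the cause was not tested. With the covariate, Ehd2 was -0.36 at day 1, -0.15 at day 5, -0.12 at day 12 and -0.14 over all protons. Cav1 was then -0.53, -0.22, -0.16 and -0.27, and -0.25 at day 26. Cav2 was -0.30 at day 1 and -0.14 over all protons, and Cav3 0.050 at day 1. With the replicate block, Ehd2 was -0.28 and Cav1 -0.41 at day 5, Cav1 -0.0072 at day 1, Ehd3 0.0026 at day 12, and Cav1 -0.090 and Cav2 -0.033 over all protons; the block changed no call, and the replicate number is no pairing in the labels. With sham of day 1 only, Cav1 was -0.0072 at day 1 and -0.0012 at day 5, and Ehd3 0.0026 at day 12. With array weights, Cav3 was 0.014 at day 3, Cav2 0.018 at day 5 and Ehd3 0.022 at day 12. With equal array medians, Ehd3 was 0.0018 at day 1 and -0.015 in late against early.

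Leaving out 1 array gave these ranges where the sign changed; where a day was left with a lone sample, that sample is assumed to vary like the other groups. At day 1 they were -0.016 to 0.38 for Ehd2, -0.12 to 0.0084 for Ehd3, -0.19 to 0.34 for Cav1, -0.026 to 0.36 for Cav2 and -0.16 to 0.026 for Cav3. At day 3 they were -0.097 to 0.065 for Ehd1, -0.55 to 0.061 for Ehd2, -0.64 to 0.11 for Cav1 and -0.15 to 0.036 for Cav3. At day 5 they were -0.11 to 0.21 for Ehd2, -0.075 to 0.20 for Cav1 and -0.28 to 0.13 for Cav2. At day 12 they were -0.12 to 0.80 for Ehd2, -0.071 to 0.054 for Ehd3 and -0.077 to 0.80 for Cav1. Over all protons Ehd1 ran from -0.10 to 0.059. With the sign kept, day 26 ran from 0.36 to 0.82 for Ehd2, 0.08 to 0.58 for Cav1, 0.15 to 0.31 for Ehd1 and 0.12 to 0.36 for Ehd3. Day 12 ran from 0.17 to 0.82 for Cav2, and day 5 from 0.14 to 0.33 for Ehd3 and -0.31 to -0.06 for Ehd1. Late against early ran from 0.23 to 0.68 for Ehd2, 0.18 to 0.63 for Cav1 and 0.35 to 0.69 for Cav2. These differences had not passed the threshold.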
